A study of Sus scrofa with 12 samples.

Results

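Stellate cell and matrix genes encode the collagens, proteoglycans and contractile proteins made by the supporting cells of the liver. Of 10 gene symbols taken for this set, 9 were carried by 12 probe sets, of 24123 probe sets and 6765 named genes in all. No probe set in the annotation used here carried COL1A1, the other chain of type I collagen, so it was not analysed here. The genes were chosen by symbol, with their stress response values at each level of aggressiveness already known from the same arrays. Those values are therefore given as a description, with no test.

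The study asked how psychosocial stress shows in liver transcripts, and measured total RNA of livers from 12 adult pigs of the German Landrace breed on Affymetrix porcine arrays, 1 per animal. The 4 groups were high stress response with high aggressiveness, low stress response with high aggressiveness, high stress response with low aggressiveness, and low stress response with low aggressiveness. Each held 3 animals, 2 males and 1 female. Both levels were labels of the animals, no treatment was named for any group, and neither the way the 2 traits were scored nor an age in days was given. Animals are named by stress response, then aggressiveness, then replicate, so that high-low 1 had high stress response, low aggressiveness and replicate number 1.

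Hepatic stellate cells lie between the hepatocytes and the sinusoidal endothelium, where they store vitamin A. When they are activated they take on features of myofibroblasts, express smooth muscle actin and lay down fibrillar collagen, a process driven in large part by transforming growth factor beta. Portal fibroblasts and the smooth muscle of portal vessels express many of the same genes, so a whole liver sample sums over all these cells. In such bulk samples, fewer cells of a type and less RNA per cell cannot be told apart.

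Values are probe set signals on a linear scale, and levels were compared between animals, since probe sets differ in how strongly they bind. Signal was set between probe sets to choose the brightest one of a gene, the brightest genes of a list or the brightest 1%, and to leave out dim ones. Signals were also summed over lists of markers, and such sums give most weight to the genes with the brightest probe sets. The median signal of an array ran from 93.3 to 117.4. Precision is limited by how few arrays there were. The arrays of high-high 3, low-high 3 and high-low 3 had the lowest median correlations with the other arrays, 0.954, 0.955 and 0.956, against 0.958 to 0.963 for the other 9. Of the markers of stellate cells and pericytes, 7 of 22 had a probe set, and LRAT and PDGFRA had none. VIM (vimentin, an intermediate filament) ran from 2877 to 7334, PDGFRB (the platelet-derived growth factor receptor of mesenchymal cells) from 1435 to 3549, and DES (desmin, of muscle and stellate cells) from 88.5 to 150.5. All 12 measured hepatocyte markers were present, with a summed signal between 371487 and 545807.

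The fibrillar collagens were represented by probe sets annotated to COL1A2, the second chain of type I collagen, and COL3A1, the chain of type III collagen. On the deposited scale both moved with the brightest probe sets and with hepatocyte markers, as given further on, and whether they report the collagen transcripts alone was not tested. COL1A2 had signals of 544, 516 and 558 in high-high livers, 482, 426 and 891 in low-high livers, 409, 549.6 and 551 in high-low livers, and 609.9, 409.7 and 423 in low-low livers. The range of each high stress response group overlapped that of the low group at the same aggressiveness, and low-high 3 stood far above all others. A second probe set of COL1A2 was dim, between 6.50 and 40.7, and it too was highest in low-high 3 and lowest in high-low 1. It averaged 10.5 in high-low and 17.6 in low-low livers, where the brighter probe set averaged 503 and 481.

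COL3A1 had signals of 83.0, 96.1 and 71.6 in high-high livers, 79.1, 80.6 and 134 in low-high livers, 50.1, 71.1 and 122 in high-low livers, and 76.3, 66.3 and 53.1 in low-low livers. As for COL1A2, low-high 3 was highest and high-low 1 lowest. That animal, high-low 1, had the highest signals of SPARC, BGN, TAGLN and LUM.

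The small leucine-rich proteoglycans DCN (decorin), LUM (lumican) and BGN (biglycan) bind collagen fibrils and shape their assembly. DCN had signals of 751, 702 and 521 in high-high livers, 643, 914 and 476 in low-high livers, 1379, 698 and 1555 in high-low livers, and 703, 497 and 1333 in low-low livers. The 3 highest animals, high-low 3, high-low 1 and low-low 3, all had low aggressiveness. BGN had signals of 1451, 683 and 1091 in high-high livers, 1196, 1297 and 874 in low-high livers, 1482, 1019.9 and 1033 in high-low livers, and 1079, 809 and 909 in low-low livers.

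The groups overlapped for both. LUM, whose gene lies next to DCN in the pig genome, was dim in most animals, with signals of 14.2, 10.3 and 2.08 in high-high livers, 11.5, 4.60 and 28.9 in low-high livers, 88.8, 27.3 and 21.8 in high-low livers, and 2.12, 9.36 and 65.4 in low-low livers. Its highest signals were those of high-low 1 and low-low 3. Its mean of 23.9 lay below the lowest mean tested with limma, 40.6, so LUM was left out of those fits. It was kept in the correlation tests between the genes, where its dim signals limit what can be read. A second probe set of DCN was dim as well, between 0.945 and 27.4. That dim probe set averaged 7.05 in high-low and 9.99 in low-low livers, where the brighter one averaged 1211 and 844.

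SPARC, a secreted protein that binds collagen and calcium, and DPT (dermatopontin), which binds decorin and promotes collagen fibril formation, are the other 2 matrix proteins of the set. SPARC had signals of 7519.9, 4551 and 4653 in high-high livers, 6927, 7269 and 5149 in low-high livers, 14749, 4536 and 9574 in high-low livers, and 5732, 4068 and 10745 in low-low livers. High-low 1, low-low 3 and high-low 3 were the highest, the same 3 animals as for DCN. DPT had signals of 352, 448 and 273 in high-high livers, 341, 359 and 294 in low-high livers, 601, 476 and 844 in high-low livers, and 469, 318 and 601 in low-low livers. Only low-low 2 of the animals with low aggressiveness lay below the highest animal with high aggressiveness. A second probe set of SPARC was dim, between 7.02 and 20.4. It averaged 10.9 in high-low and 12.7 in low-low livers, where the brighter one averaged 9620 and 6848.

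ACTA2, the smooth muscle actin that marks activated stellate cells and vascular smooth muscle, and TAGLN (transgelin), an actin-binding protein of the same cells, make up the contractile pair. ACTA2 had signals of 1426, 3642 and 1616 in high-high livers, 3223, 5389 and 1488 in low-high livers, 4477, 2346 and 2447 in high-low livers, and 1854, 1343 and 2474 in low-low livers. TAGLN had signals of 293, 698 and 375 in high-high livers, 493, 703 and 231 in low-high livers, 760.4, 456 and 475 in high-low livers, and 341, 229 and 442 in low-low livers. Both genes were high in high-low 1, low-high 2 and high-high 2, and lowest in low-low 2, low-high 3 and high-high 1. Actin genes are close to identical in their coding sequence, and whether the ACTA2 probe set also reports other actins was not tested.

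**Figure D1:**
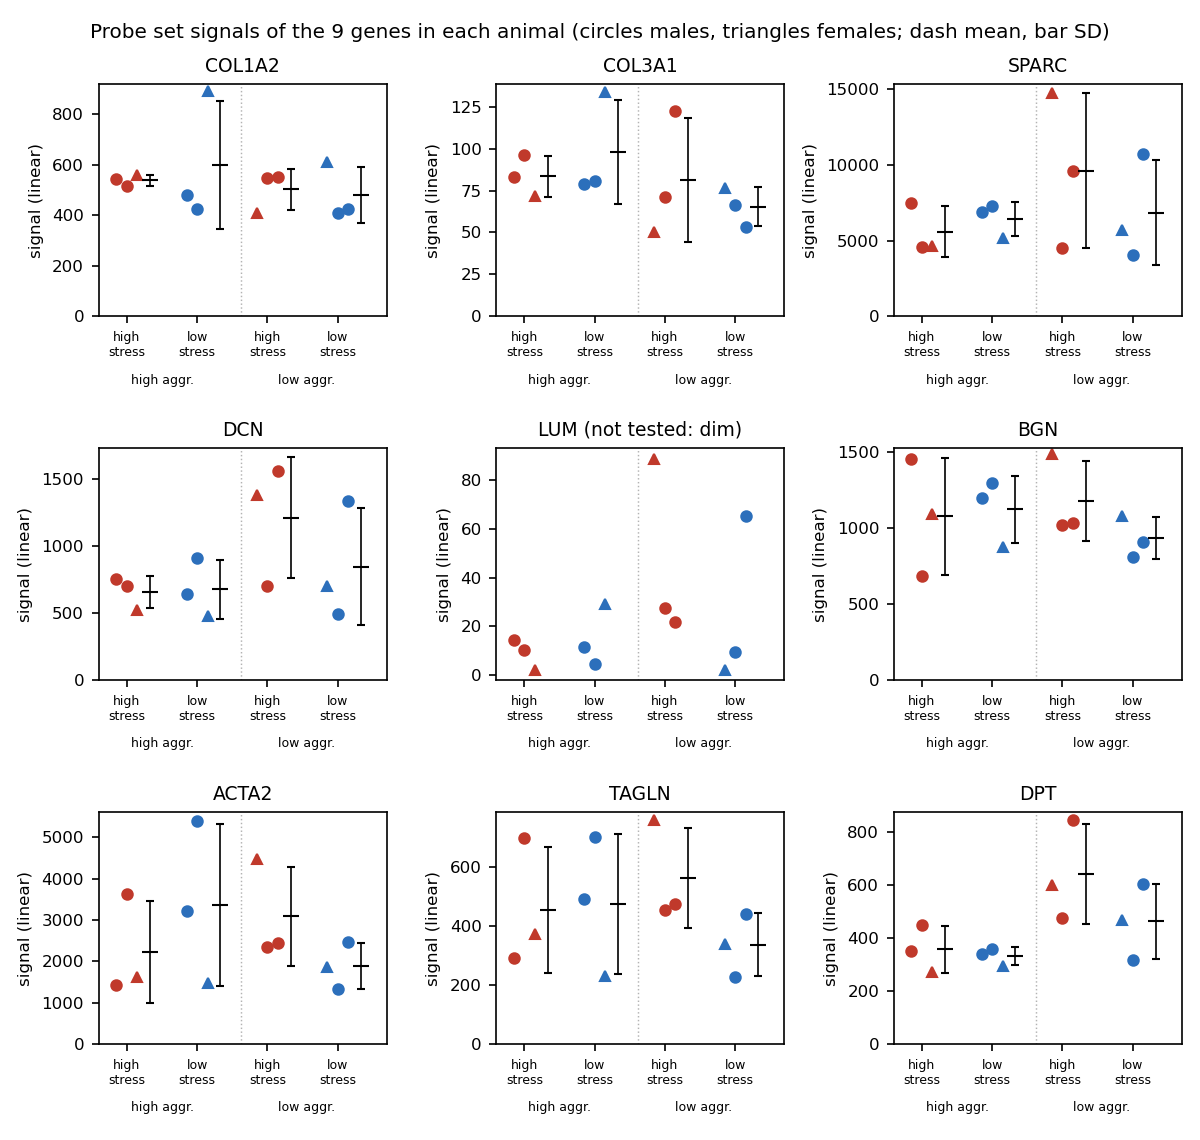
Signal (linear scale) of the brightest probe set of each of the 9 genes in every animal, with high stress response in red and low in blue, at high aggressiveness on the left and low on the right of each panel; the dash and bar are the mean and SD of 3 animals, not drawn for the dim LUM. The highest SPARC, BGN, TAGLN and LUM signals all belong to high-low 1, and the highest COL1A2 and COL3A1 signals to low-high 3.

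At high aggressiveness ACTA2 had the largest difference between the stress response groups, lower in high-high than in low-high livers, and the other 7 tested genes lay nearer to 0. Fold changes are on the log2(signal + 16) scale, from limma fits with sex as a covariate, and this scale understates changes of dim probe sets such as that of COL3A1. Of the 8 tested genes 1 was above 0 and 7 were below it. Their log2 fold changes had a median of -0.09, against a median of 0.02 and 52.9% above 0 over all 15999 tested probe sets. ACTA2 averaged 2228 ± 1228 in high-high livers and 3367 ± 1954 in low-high livers (SD, n = 3 each), which is -0.54 ± 0.49 (SE) in log2. SPARC averaged 5575 ± 1685 in high-high livers and 6448 ± 1138 in low-high livers (SD, n = 3 each), or -0.23 ± 0.45 (SE). TAGLN, DCN and DPT had log2 fold changes of -0.02 ± 0.43, -0.01 ± 0.40 and 0.08 ± 0.28 (SE). Single animals moved these values too: ACTA2 was -0.13 without low-high 2 and -1.08 without low-high 3, SPARC ran from -0.49 without high-high 1 to -0.07 without high-high 3, and TAGLN was 0.31 without low-high 2 and -0.51 without low-high 3. As background, 6.13% of all probe sets had an unadjusted p under 0.05 and 0 of the 8 genes did. Nothing is read from that, since the genes were chosen with these values known. In none did the 3 high-high animals all lie above or all below the 3 low-high animals, which 6.33% and 4.49% of all probe sets did.

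At low aggressiveness all 8 tested genes were above 0. Their log2 fold changes had a median of 0.46, against a median of 0.03 and 55.3% above 0 over all tested probe sets. With no filter, and so with the dim probe sets kept, 9 of the 12 probe sets were above 0 (median 0.39). TAGLN averaged 564 ± 171 in high-low livers and 337 ± 106 in low-low livers (SD, n = 3 each), which is 0.72 ± 0.43 (SE) in log2, or 1.65-fold. It was the single gene of the 8 in which the 3 high-low animals all lay above the 3 low-low animals (lowest 456, highest 442), which 6.32% of all probe sets did; 4.48% lay all below, and none of the 8 did. ACTA2 averaged 3089.9 ± 1202 in high-low livers and 1890.4 ± 566 in low-low livers (SD, n = 3 each), or 0.68 ± 0.49 (SE). DCN, DPT, SPARC and BGN had 0.55 ± 0.40, 0.46 ± 0.28, 0.45 ± 0.45 and 0.32 ± 0.29 (SE). The collagens COL3A1 and COL1A2 had the smallest values, 0.20 ± 0.29 and 0.07 ± 0.25 (SE). No value was more than 1.67 times its SE. As background, 5.12% of all probe sets had an unadjusted p under 0.05 and 0 of the 8 genes did, and again nothing is read from that count.

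These 8 values come from the same 6 animals, and single animals moved them. The median was 0.19 without low-low 2, 0.80 without high-low 2, 0.76 without low-low 3 and 0.30 without high-low 1, against 0.46 with all. Without high-low 1 SPARC was -0.05, ACTA2 0.17 and TAGLN 0.33; without high-low 3 COL1A2 was -0.05 and COL3A1 -0.10. In males alone, with 2 animals a group, the median was 0.39 and SPARC was -0.00.

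**Figure D2:**
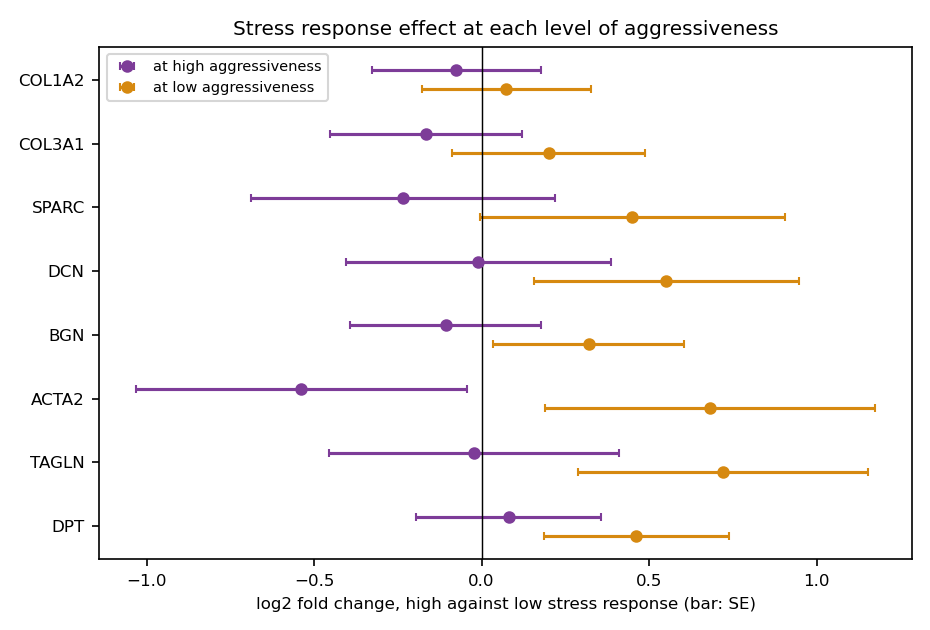
Log2 fold change of high against low stress response for each of the 8 tested genes, in animals with high aggressiveness (purple) and low aggressiveness (orange); points are limma estimates and bars their SE. At low aggressiveness all 8 points lie right of 0, and the bars of SPARC, COL3A1 and COL1A2 cross 0. At high aggressiveness 7 of 8 points lie left of 0, and all bars but that of ACTA2 cross 0.

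The difference between the stress response effects at high and at low aggressiveness, the interaction, was below 0 for all 8 genes, with a median of -0.49 on the log2 scale against -0.00 over all tested probe sets. ACTA2 had the largest, -1.22 ± 0.70 (SE), then TAGLN with -0.74 ± 0.61 and SPARC with -0.68 ± 0.64 (SE). COL1A2 had the smallest, -0.15 ± 0.36 (SE). Without high-low 1 these were -0.70 for ACTA2, -0.35 for TAGLN and -0.19 for SPARC, and COL1A2 was 0.15 without low-high 3 and 0.24 without that array, high-high 3 and high-low 3. As background, 3.87% of all probe sets had an unadjusted p under 0.05 for the interaction and 0 of the 8 genes did, which is likewise no test. Without high-high 3 and high-low 3 the interaction of DPT was 0.02 and that of COL3A1 0.13, and the median was -0.30. Over both levels of aggressiveness together, stress response gave a median log2 fold change of 0.11 with 7 of 8 genes above 0. TAGLN had the highest, 0.35 ± 0.31 (SE), and 0 of the 8 had an unadjusted p under 0.05, beside 8.16% of all probe sets, also given as a description.

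In this balanced layout the contrast of aggressiveness is separate from the stress response and interaction terms, and it was tested over all probe sets. The genes were chosen with earlier results of these data known, so its p-values are not those of an independent test. No gene of the set passed with limma after Benjamini-Hochberg adjustment, nor did any other probe set (0%), while 515 probe sets (3.22%) and 1 of the 8 genes had an unadjusted p under 0.05. That gene was DPT, with signals from 273 to 448 (median 346) at high and from 318 to 844 (median 539) at low levels of it. DPT averaged 344 ± 61.0 in the 6 animals with high and 552 ± 178 in the 6 with low aggressiveness (SD), or -0.61 ± 0.19 in log2 (SE, limma, unadjusted p = 0.00888, adjusted p = 1.00). Its groups overlapped, and the value was -0.41 without high-high 3 and high-low 3, and -0.30 without these and low-high 3. DCN had a log2 fold change of -0.52 ± 0.28 (SE, limma adjusted p = 1.00), and averaged 668 ± 160 in animals with high and 1028 ± 445 in those with low aggressiveness (SD, n = 6 each). It was -0.32 without high-high 3 and high-low 3, and -0.07 without these and low-high 3. For DPT and DCN alike, the larger omission was chosen after the data were seen and left no female with high aggressiveness. COL3A1 and COL1A2 had values of the other sign, 0.28 ± 0.20 and 0.18 ± 0.17 (SE), which were 0.13 and 0.05 without low-high 3 alone. The hepatocyte markers they moved with had 11 of 12 above 0 for aggressiveness (median 0.14), and their part in the collagen values was not tested. The median of the 8 genes was 0.03.

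Of 3 controls for the ratio of 3' to 5' signal, a sign of RNA quality, the elongation factor control had no overlap between levels of aggressiveness, while those of actin and GAPDH overlapped. Its log2 ratio ran from 0.872 to 0.962 in high-high, from 0.757 to 0.993 in low-high, from 0.685 to 0.748 in high-low and from 0.693 to 0.734 in low-low livers. All 6 tested stellate cell and pericyte markers were below 0 for aggressiveness (median -0.25), while 52.0% of all probe sets were above 0. Of 6 cholangiocyte markers 3 were above 0 and 3 below. An unadjusted p under 0.05 was found for 4 of these 6, beside 3.22% of all probe sets, and none passed with limma after adjustment. The part of these in the values of DPT and DCN was not tested. Between stress response groups at low aggressiveness the elongation factor ratio overlapped.

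Sex was the other contrast tested over all probe sets. None of the 8 genes passed with limma after adjustment, against 11 probe sets (0.0688%) in all, and none had an unadjusted p under 0.05, against 5.21% of all probe sets. COL1A2 came nearest, with 488 ± 60.8 in males (SD, n = 8) and 617 ± 201 in females (SD, n = 4), a log2 fold change of -0.29 ± 0.18 (SE, limma adjusted p = 0.941), which was -0.08 without low-high 3, a female. The largest value above 0 was that of ACTA2, 0.26 ± 0.40 (SE, limma adjusted p = 0.963), and it ran from 0.05 without low-high 3 to 0.72 without high-low 1.

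Across the 12 animals the 9 genes did not vary as 1 block. Of their 36 pairs 22 correlated above 0 and 14 below, with a median Pearson r of 0.23 on log2 signals. All 14 below 0 joined COL1A2 or COL3A1, whose probe sets moved with the brightest ones, to another gene. After adjustment over the 36, 4 pairs passed (two-sided permutation tests, 100000 resamples). Animals were shuffled across all groups. As the genes were chosen with earlier results of these data known, these p-values are not those of an independent test. ACTA2 and TAGLN formed the tightest pair, with Pearson r = 0.95 and Spearman rho = 0.96 (n = 12, permutation p = 1e-05 for each, the smallest these resamples can give, adjusted p = 0.00036 for each). Without the 2 animals farthest from the median of ACTA2 r was 0.94, and with group and sex taken out it was 0.99. Within every group the order of the animals in ACTA2 was their order in TAGLN, as the signals above show.

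A second set joined DCN with DPT and with SPARC. DCN and DPT correlated with r = 0.89 and rho = 0.85 (permutation adjusted p = 0.00162 and 0.0176), and r was 0.79 without the 2 animals farthest from the median of DCN. SPARC and DCN correlated with r = 0.87 and rho = 0.81 (permutation adjusted p = 0.00408 and 0.0246), and r was 0.80 without the 2 animals farthest from the median of SPARC. With group and sex taken out these were 0.85 and 0.91. SPARC and DPT had r = 0.64. BGN, the other proteoglycan in the limma fits, had r = 0.58 with SPARC, 0.33 with DCN and 0.04 with DPT, and none of these passed.

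The 2 collagens correlated with each other, with r = 0.74 and rho = 0.61 (permutation adjusted p = 0.0439 and 0.291). It fell to r = 0.44 without low-high 3 and high-low 1, so the relation rests in part on those animals. With group and sex taken out, and all animals kept, r was 0.83. Under quantile normalization r was 0.65 (permutation adjusted p = 0.136). With all 7 other genes both collagens had r below 0, from -0.50 between COL1A2 and TAGLN to -0.09 between COL3A1 and DPT, and none of these passed.

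**Figure D3:**
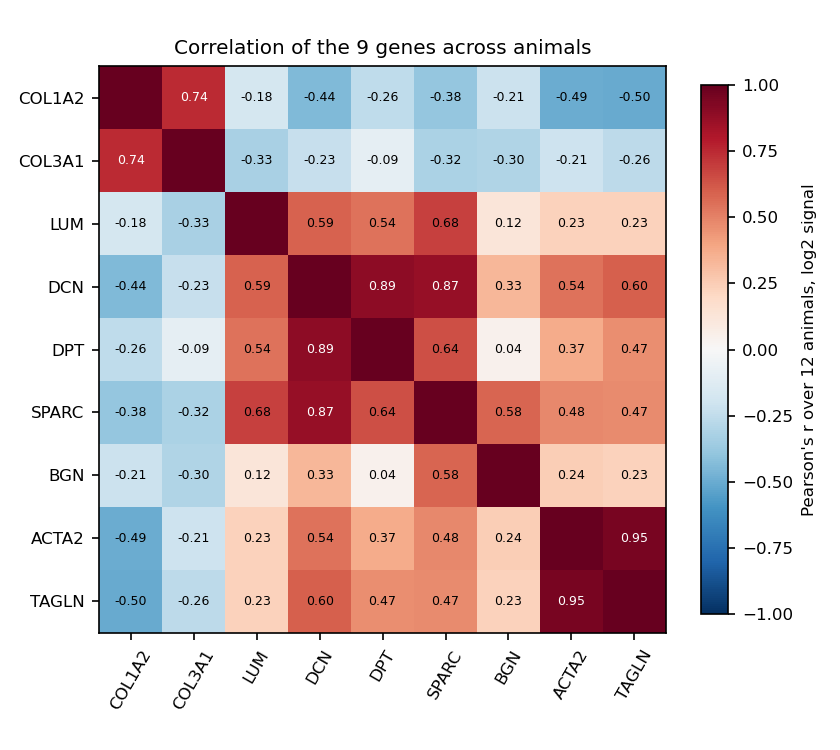
Pearson correlation of log2 signal over the 12 animals for each pair of the 9 genes, from -1 (blue) to 1 (red). ACTA2 and TAGLN (0.95) and DCN with DPT (0.89) and SPARC (0.87) stand out, while COL1A2 and COL3A1 (0.74) are below 0 with all other genes.

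The collagens were also set apart by the genes they resembled. Of the named genes, those most like COL1A2 over the 12 animals were UBB and RPS27A, which encode ubiquitin, the elongation factor gene listed as EF1ALPHA, and the plasma protein genes HPX and APOH, with r from 0.93 to 0.96. These genes, like those listed for single members below, were looked up after the values were seen. The 12 hepatocyte markers had a median r of 0.85 with COL1A2 and 0.70 with COL3A1, against -0.26 with DCN and -0.23 with ACTA2. Of the 239 probe sets in the brightest 1%, 59.8% had r over 0.5 with COL1A2 and 53.1% with COL3A1, against 1.26% to 3.77% for the other 7 genes. After quantile normalization the median r with the hepatocyte markers was 0.00 for COL1A2 and 0.19 for COL3A1. The median r with the brightest probe sets was -0.02 and -0.00, against 0.60 and 0.53 as deposited. The share of these with r over 0.5 after quantile normalization was 12.97% for COL1A2 and 6.28% for COL3A1. For the other 7 genes it ran from 5.02% to 10.88%, so the share of COL1A2 fell but stayed the highest.

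DCN most resembled MXRA7, a matrix remodelling associated gene, DPT and PDGFRL, a gene related to the platelet-derived growth factor receptor, with r of 0.92, 0.89 and 0.88. ACTA2 most resembled TAGLN and TPM2, the beta tropomyosin of muscle, with r of 0.95 and 0.90. TPM2 had signals of 852, 1189 and 748 in high-high, 1252, 1604 and 918 in low-high, 1295, 873 and 876 in high-low, and 934, 579.6 and 1071 in low-low livers. It was highest in low-high 2 and lowest in low-low 2, as was ACTA2.

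By the mean of the 8 tested genes, each centred on its own mean in log2, the animals ran from -0.54 in low-low 2 to 0.47 in high-low 1. That mean was 0.27 ± 0.30 in high-low, -0.16 ± 0.35 in low-low, -0.12 ± 0.17 in high-high and 0.01 ± 0.25 in low-high livers (SD, n = 3 each). Of 5802 other named genes, the 8 most like it over the 12 arrays were PAPSS1, MXRA7, CAV1, PDGFRL, ACTG2, COL6A3, NLN and RPL31, with r from 0.89 to 0.80. PAPSS1 makes the sulfate donor for proteoglycans and other substrates, CAV1 is a coat protein of caveolae, ACTG2 is the enteric smooth muscle actin and COL6A3 is a chain of type VI collagen. No p is given, since the genes were picked as the most alike.

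The rest of the matrix pathway was read from lists of related genes. Of 24 other collagen chains 12 had a probe set and 8 were tested. At high aggressiveness 0 of the 8 lay above 0 (median -0.22 in log2), and at low aggressiveness 7 did (median 0.53). The 3 brightest were COL6A3 (-0.46 ± 0.51 at high and 0.61 ± 0.51 at low aggressiveness, SE), COL4A2 of the basement membrane (-0.39 ± 0.40 and 0.45 ± 0.40) and COL6A2 (-0.12 ± 0.22 and 0.33 ± 0.22). These have the signs seen for ACTA2 and SPARC, with errors near to or above the size of most of these values. Of 20 tested matrix glycoproteins and proteoglycans 8 were above 0 at high aggressiveness (median -0.05) and 18 at low (median 0.34). The brightest were FN1 (fibronectin) and VTN (vitronectin), both made by hepatocytes, and MGP (matrix Gla protein), at -0.04 ± 0.15, 0.01 ± 0.15 and 0.13 ± 0.24 (SE) at high and 0.05 ± 0.15, 0.06 ± 0.15 and 0.30 ± 0.24 (SE) at low aggressiveness.

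Of 10 tested matrix proteases and inhibitors 7 were above 0 at high aggressiveness (median 0.20) and 8 at low (median 0.44). MMP14, a membrane protease that activates other matrix proteases, had 0.84 ± 0.36 at high and 0.69 ± 0.36 at low aggressiveness (SE). ADAMTS1, which cleaves proteoglycans, had 0.27 ± 0.43 and 0.90 ± 0.43 (SE), and TIMP2, a protease inhibitor, 0.15 ± 0.31 and 0.07 ± 0.31 (SE), with high aggressiveness given before low. The genes that fold, process and crosslink collagen stayed nearer to 0, with 5 of 13 above 0 at high (median -0.02) and 8 at low aggressiveness (median 0.08). Among them PLOD1, a lysyl hydroxylase, had -0.01 ± 0.18 and 0.08 ± 0.18, P4HA2, a prolyl hydroxylase subunit, 0.06 ± 0.24 and -0.19 ± 0.24, and SEC23A, a coat protein needed for collagen export, -0.05 ± 0.23 and -0.19 ± 0.23 (SE). In the transforming growth factor beta pathway 6 of 12 were above 0 at high (median -0.07) and 8 at low aggressiveness (median 0.09). Its brightest genes were the receptors ACVR1B and ACVR1 and the signal transducer SMAD4, with 0.25 ± 0.21, -0.21 ± 0.24 and 0.17 ± 0.21 (SE) at high and 0.09 ± 0.21, -0.18 ± 0.24 and 0.17 ± 0.21 (SE) at low aggressiveness. For aggressiveness and for sex, 0 genes of these 5 lists passed with limma after adjustment; at an unadjusted p under 0.05 there were 1 collagen chain, 1 processing gene and 1 glycoprotein for aggressiveness, and 1 glycoprotein and 1 gene of the growth factor pathway for sex, beside 3.22% and 5.21% of all probe sets.

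**Figure D4:**
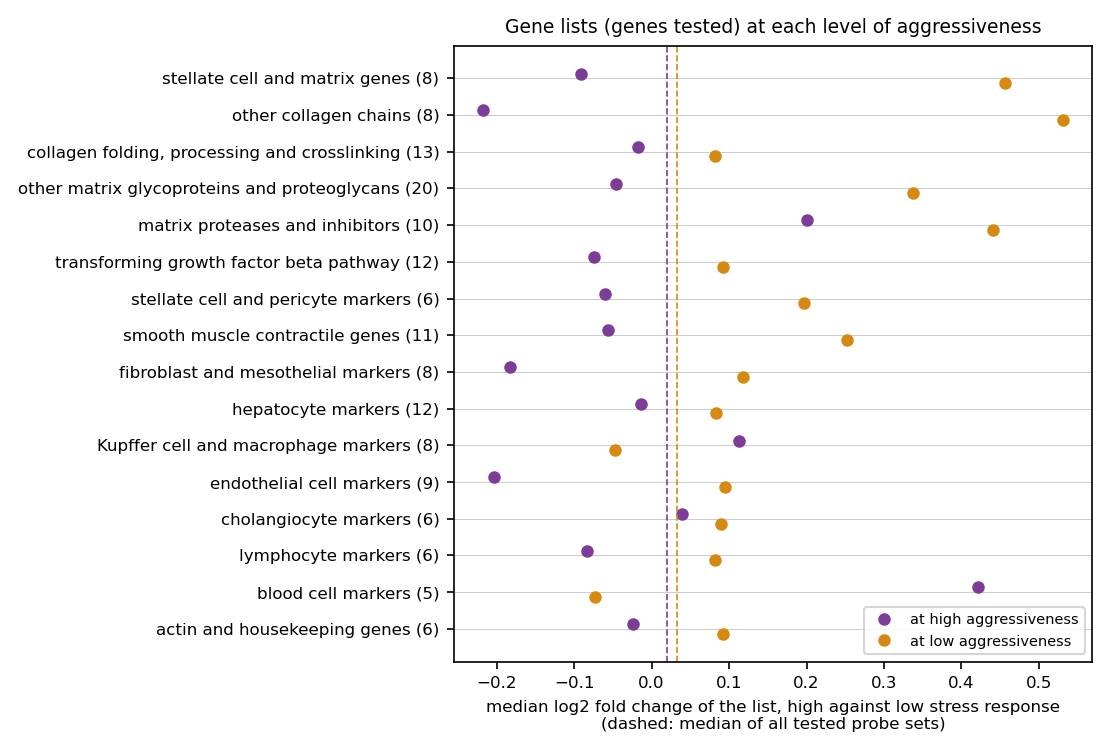
Median log2 fold change of high against low stress response over the tested genes of each list (number in brackets), at high aggressiveness (purple) and low aggressiveness (orange); dashed lines are the medians of all tested probe sets. The other collagen chains lie at -0.22 and 0.53, beside the stellate cell and matrix genes at -0.09 and 0.46.

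Markers of the cell types that make these genes were read beside them. The 6 tested markers of stellate cells and pericytes had 2 above 0 at high (median -0.06) and 4 at low aggressiveness (median 0.20), and their summed signal ran from 5436 to 8257 in high-high, 7039 to 7814 in low-high, 6698 to 11909 in high-low and 6449.9 to 9049 in low-low livers. PDGFRB and VIM had -0.10 ± 0.28 and -0.02 ± 0.28 (SE) at high and 0.45 ± 0.28 and 0.30 ± 0.28 (SE) at low aggressiveness, and THY1, also a fibroblast marker, -0.50 ± 0.58 and -0.41 ± 0.58 (SE). The 11 smooth muscle genes had medians of -0.06 and 0.25, with sums of 15467 to 17490.1 in high-high, 14711 to 18770.1 in low-high, 15905 to 17502 in high-low and 14810.2 to 15673 in low-low livers. The high-low sums thus all lay above the low-low sums, as 6.32% of all single probe sets did, and nothing is read from that. CALD1, TAGLN2 and ACTN1, its brightest genes, had -0.06 ± 0.18, 0.23 ± 0.24 and 0.06 ± 0.19 (SE) at high and 0.06 ± 0.18, 0.23 ± 0.24 and 0.28 ± 0.19 (SE) at low aggressiveness. Their part in the values of ACTA2 and TAGLN was not tested.

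All 6 stellate cell and pericyte markers had r above 0 with each of DCN, SPARC and DPT, with medians of 0.36, 0.43 and 0.38. The median r was 0.08 with ACTA2 and -0.11 with COL1A2. These are descriptions over the same 12 arrays, with no test of the difference. Endothelial markers had medians of -0.20 at high and 0.10 at low aggressiveness, Kupffer cell markers 0.11 and -0.05, cholangiocyte markers 0.04 and 0.09, fibroblast and mesothelial markers -0.18 and 0.12, lymphocyte markers -0.08 and 0.08, blood cell markers 0.42 and -0.07, and hepatocyte markers -0.01 and 0.08. The housekeeping genes had -0.02 and 0.09.

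**Figure D5:**
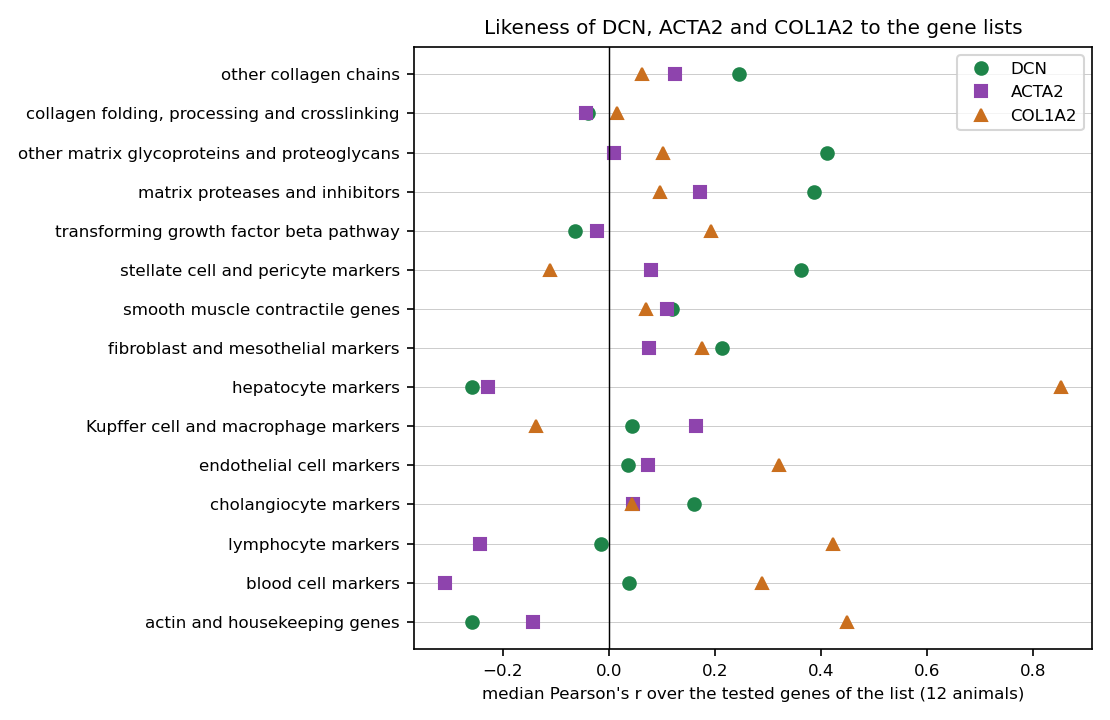
Median Pearson correlation over 12 animals of the genes of each list with DCN (green circles), ACTA2 (purple squares) and COL1A2 (orange triangles). COL1A2 lies at 0.85 for hepatocyte markers, where DCN and ACTA2 lie at -0.26 and -0.23, and DCN lies at 0.36 for stellate cell and pericyte markers.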

How the data were processed

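The authors deposited 1 intensity per probe set and array, on a linear scale. GCOS 1.1.1 is named in the submitters' processing notes; how probes were summarised is not given in the sources used here. The mean after trimming 2% was 500.2 on every array, so arrays had been scaled before deposit. All 12 columns were used. Replicate numbers follow the order of deposit and pair no animals.

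Of 24123 probe sets 124 controls were left out, then the lowest 33.3% by mean, leaving 15999. Linear models of log2(signal + 16) were fitted in limma 3.58.1 (R 4.3.3), with stress response, aggressiveness and sex (8 residual degrees of freedom), and with their interaction for the simple effects (7). The call threshold was 0.05 after Benjamini-Hochberg adjustment across the 15999. Symbols came from the array's annotation, and 10099 probe sets had 1. A gene is its brightest tested probe set. The models were tested on simulated data with known effects. Figures used matplotlib 3.10.9. The members and lists were chosen with earlier results of these data known. Named were all members, the 3 brightest tested genes of each pathway list and of the stellate and smooth muscle lists, and the 8 genes most like the members' mean; others were chosen after their values were seen. Alternatives were other normalizations, constants, filters and models, males only, the mean over probe sets, and animals left out.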

Additional observations from a re-analysis of the deposited data

Results flagged for a closer look

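Of 48 sets of animals checked, those of a stress response level, an aggressiveness level or a sex for each of the 8 tested genes, 2 held an animal far from the rest by Dixon's test, and chance gives about 1 in 20. Both concerned COL1A2. High-low 1 was the lowest of the 6 animals with high stress response, with a signal of 409, and low-high 3 was the highest of the 6 with high aggressiveness, with 891. Leaving out these animals also lowered the r of COL1A2 and COL3A1, to 0.44.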

How the results depend on the processing

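Without 1 animal in turn, the median log2 fold change of the 8 tested genes ran from 0.19 (without low-low 2) to 0.80 (without high-low 2) for stress response at low aggressiveness, from -0.29 to -0.02 at high aggressiveness, from -0.77 to -0.34 for the interaction, from 0.02 to 0.25 for stress response over both levels, from -0.17 to 0.10 for aggressiveness and from -0.02 to 0.30 for sex. Under the other alternatives it ran from 0.28 to 0.51, from -0.18 to -0.01, from -0.58 to -0.30, from 0.06 to 0.18, from 0.01 to 0.21 and from -0.38 to 0.18 in the same order. The spread between animals within groups was 0.27 (SD of the mean of the 8 genes). Leaving out high-low 2 (0.80) or low-low 3 moved the median for stress response at low aggressiveness by more than that. Under the other alternatives only the median for sex did so, at -0.38 without high-high 3, low-high 3 and high-low 3. This leaves 2 females, and the cause was not tested. That omission was chosen after the data were seen. No gene was called for aggressiveness or sex under any alternative run. At low aggressiveness 6 to 8 of 8 genes were above 0, and at high aggressiveness 1 to 4. The correlation of COL1A2 and COL3A1 no longer passed under quantile normalization (r = 0.65) or median centring (r = 0.63), or without the 3 arrays (r = 0.58), and that of DCN and DPT without the 3 arrays (r = 0.78). No paired analysis was possible because the labels give no number that pairs animals between groups. The number of arrays, 3 in a group, limits what could be seen.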
